A study of Mus musculus with 2 samples.

Results

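Myosin light chains are the small subunits that sit on the neck of the myosin head, and the genes described here encode 8 of them, with the skeletal muscle kinase that phosphorylates one. The 9 genes are Myl1, Myl2, Myl3, Myl4, Myl6, Myl6b, Myl9, Mylpf and Mylk2. They were read from every probe set (a group of probes for a transcript) that names exactly 1 of them in the array annotation. This gave 12 probe sets of 34945 that carry 1 gene symbol, and all 12 had a mean signal above the floor used here, a log2 signal of 5.52. The samples were diaphragm muscle of mouse embryos at E18.5, shortly before birth, of strain C57/BL6, and each genotype of the repressor RP58 (now Zbtb18) had 1 array. The groups were RP58+/+ (wild type) and RP58-/- (knockout), here called by these labels, with no further allele or treatment in the labels, and the number of embryos behind each array is not stated in the sources used here. Skeletal muscle markers were all above the floor, with log2 signals of 13.95 and 13.36 for skeletal actin (Acta1) and 13.53 and 12.11 for muscle creatine kinase (Ckm) on the RP58+/+ and RP58-/- arrays. Liver transcripts were also bright on both, with albumin (Alb) at 14.23 and 14.30 and alpha-fetoprotein (Afp) at 13.81 and 14.01. No value below has a replicate, so no test across embryos was possible, and arrays in this number limit the precision of each difference.

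Each myosin head carries an essential light chain, which stiffens the neck, and a regulatory light chain, which can be phosphorylated. Muscle fibre types use their own sets. Myl1 and Mylpf are the essential and regulatory chains of fast fibres, Myl3 and Myl2 those of slow fibres and heart ventricle, and Myl4 is the essential chain of embryonic muscle and heart atrium. Myl6 and Myl9 belong to smooth muscle and non-muscle myosin, and Myl6b is an essential chain found in slow and non-muscle settings. Kinases that respond to calcium and calmodulin phosphorylate the regulatory chain, and in skeletal fibres this raises force at low calcium.

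The 4 light chain genes of fast and slow fibres, Myl3, Myl2, Myl1 and Mylpf, had lower signals in RP58-/- by 1.5-fold or more (0.585 on the log2 scale). When the arrays are scaled to the poly-A spike-in controls, only Myl3 stays lower by that size. Myl2 then stands at -0.076, and Myl1 and Mylpf turn to above 0. That scaling raises every difference by 0.748, and all values here are relative to the median gene instead. The other 5 genes differed by less than that, and 0 were higher. Differences are those of the deposited log2 signals, knockout minus wild type, and each gene was read from its probe set of highest mean signal. Of 14100 genes above the floor, 6.51% were lower by the same rule and 3.84% were higher. The differences of 8 of the 9 genes were below 0, where 50.4% of all genes lay, and their median was -0.43 (0.315 with spike-in scaling) beside a median of -0.003 over all genes. Counted by probe set, 6 of 12 were lower and 0 higher, beside 6.48% and 3.35% of all 23077 named probe sets above the floor. Only Myl3 was lower by 2-fold, a size reached by 2.31% of genes, and it was so on 3 probe sets, beside 2.07% of all probe sets. The error available is that between probe sets of 1 gene: their differences had a pooled SD of 0.278 over 5680 genes, and the brightest and next brightest probe sets disagreed by up to 0.732 in 95% of genes. That spread covers probes and isoforms, not embryos, dissection or hybridisation. It is measured within genes, so it does not show whether a gap between different genes is unusual. How often other gene pairs differ by more than 0.732 was not tested.

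**Figure D1:**
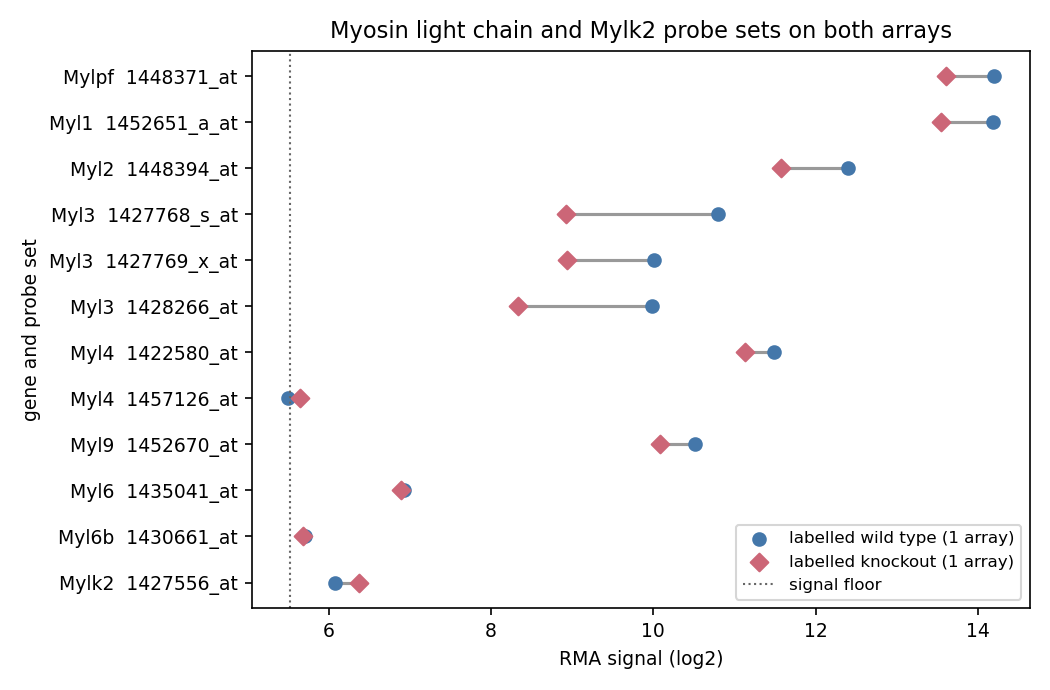
Log2 RMA signal (x axis) of each of the 12 member probe sets (y axis, gene and probe set) for RP58+/+ (circles) and RP58-/- (diamonds), with the floor as a dotted line. The lines between symbols are longest for the 3 probe sets of Myl3, and Mylpf and Myl1 lie near the upper end of the scale.

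Some values of the whole table bear on every difference. The labels were not checked by the targeted gene, whose 1 probe set (Zbtb18) read 8.91 (log2) for RP58+/+ and 9.21 for RP58-/-, and where it lies relative to the deleted part is not stated in the sources used here. Directions therefore rest on the labels. The RNA of the inactive X chromosome, Xist, was at 11.47 and 6.96, and the Y-linked gene Eif2s3y at 3.59 and 8.58, so genotype label and sex-linked signal cannot be told apart. The 24 probe sets of the poly-A spike-in controls all read lower in RP58-/-, by a median of -0.75. Markers of neighbouring tissue were higher there, in 6 of 9 liver genes and 0 lower (summed linear signal 80938 and 117441 on the RP58+/+ and RP58-/- arrays), 5 of 7 lung genes (701 and 3292, with Nkx2-1 and Scgb1a1 under the floor), 4 of 6 mesothelium genes (6741 and 10949) and 4 of 8 leukocyte genes (11058 and 17049). The summed lung signal depends strongly on Sftpc, at 7.65 and 11.30 (3.64), whereas the median over the lung genes was 0.665. Markers of skeletal muscle were lower in 7 of 10 genes, with a summed signal of 45494 and 23654. Bright genes such as Acta1 and Ckm weigh most in that sum. The 3 genes within the rule were Myog (0.09), Myod1 (-0.18) and Tnnt1 (-0.21). Over all genes above the floor, 6.51% were lower and 3.84% higher by the same rule. The part of these tissue differences in the light chain values was not tested, and in bulk muscle fewer fibres and less RNA per fibre cannot be told apart.

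Myl3, on chromosome 9, had the largest difference of the 9 genes. Its brightest probe set, 1427768_s_at, read 10.79 (log2) for RP58+/+ and 8.92 for RP58-/-. That is a difference of -1.87, or 3.66-fold lower. The other probe sets gave 10.01 and 8.93 for 1427769_x_at (-1.08), and 9.99 and 8.33 for 1428266_at (-1.66). All 3 were thus lower by more than 2-fold, with a mean of -1.54 ± 0.41 (SD over 3 probe sets, which share the same RNA). The suffixes _s_at and _x_at mark probes that may also match other transcripts, and the probe set without such a suffix lay between the others. In the ranking of differences, 63 of 14100 genes were lower than Myl3 on its brightest probe set, or 0.447%. Of all named probe sets above the floor, 1.69% were lower than 1427769_x_at and 0.589% lower than 1428266_at.

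Myl2, the regulatory chain that pairs with Myl3 on slow and ventricular myosin, was read by 1 probe set on chromosome 5. It read 12.40 (log2) for RP58+/+ and 11.57 for RP58-/-, a difference of -0.82 (1.77-fold lower). Scaled to the poly-A spike-ins, Myl2 would stand at -0.076, within the rule. The gap between Myl3 and Myl2 was -1.05 on the log2 scale, larger than the 0.732 within which 95% of probe set pairs of a gene lay. Such a gap is the same under any constant shift between the arrays. Across genes, differences of named probe sets had an SD of 0.505 at mean signals of 9 to 11 and 0.539 from 11 to 13. A gap past the 0.732 limit is thus not shown to be unusual between genes. With the probe set 1427769_x_at in place of the brightest, the gap was -0.25, within that limit. The slow heavy chain gene Myh7, the partner of both, was at 9.67 and 9.10, a difference of -0.58. The gap of Myl2 to Myh7 was -0.25, within the disagreement of probe sets, and that of Myl3 was -1.30, beyond it, but -0.50 and within it on 1427769_x_at.

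Myl1 and Mylpf, the essential and regulatory chains of fast fibres, were lower by nearly the same amount, except under spike-in scaling. Myl1, on chromosome 1, had log2 signals of 14.19 and 13.55 on the RP58+/+ and RP58-/- arrays, a difference of -0.64 (1.56-fold lower). Its only probe set, 1452651_a_at, carries a suffix for transcripts of 1 gene, so the alternative products of Myl1 were not told apart. Mylpf, on chromosome 7, had 14.20 and 13.61, a difference of -0.59 (1.51-fold lower). Mylpf passed the 1.5-fold rule by only 0.006. It stood at -0.583, inside the rule, when the differences were corrected by loess on mean signal. The gap between the fast chains was -0.05, well within the disagreement of probe sets. Scaled to the poly-A spike-ins, Myl1 and Mylpf would stand at 0.11 and 0.16, and the Myl3 probe sets at -1.12, -0.91 and, within the rule, -0.33.

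Both fast chains were read near the top of the scale, whose highest signals were 14.39 and 14.36. Of 112 named probe sets with a mean log2 signal of at least 13, 7 were lower by the 1.5-fold rule (6.25%), beside 15.6% of 733 probe sets between 11 and 13 and 10.4% of 3049 between 9 and 11. The 7 were those of the fast troponin C gene Tnnc2 (-1.06), cardiac actin Actc1 (-1.02), sarcolipin Sln (-0.78), Myl1 (-0.64), skeletal actin Acta1 (-0.60), Mylpf (-0.59) and cytochrome c Cycs (-0.585). Actc1, Sln and Cycs are named because their values fell in this range. Higher signals in RP58-/- were found for 12 of the 112 (10.7%), beside 6.68% and 5.97% in the next ranges down. The SD of differences was 0.363 among the brightest probe sets, 0.539 from 11 to 13, 0.505 from 9 to 11 and 0.343 in the dimmest range, from the floor to 7.

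**Figure D2:**
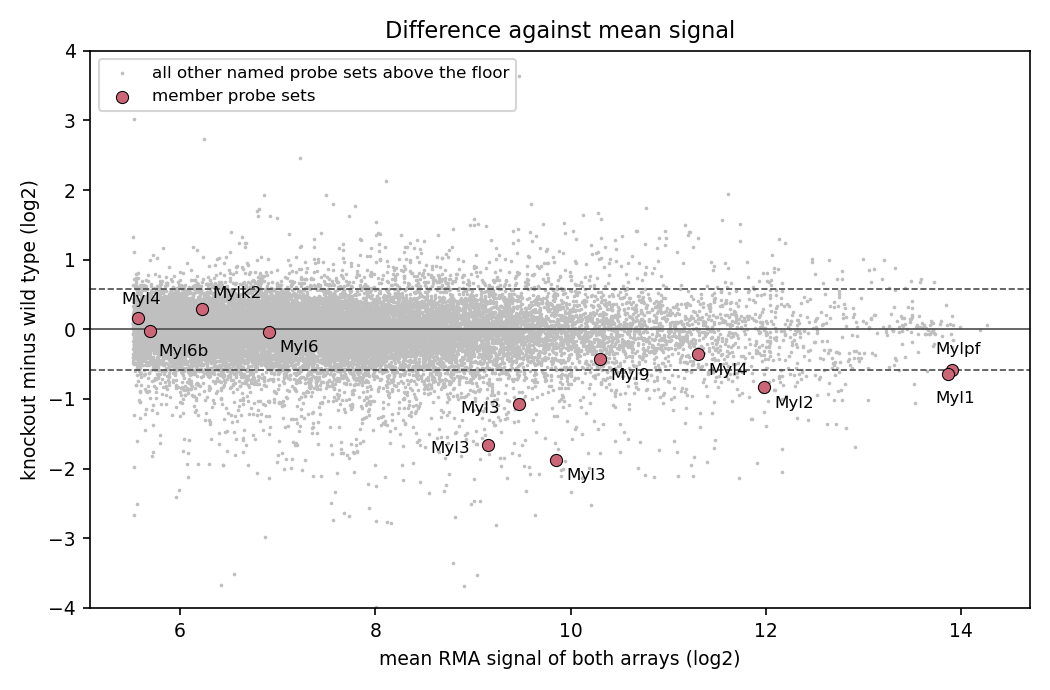
Difference of log2 signals, knockout minus wild type (y axis), against mean log2 signal of both arrays (x axis) for all named probe sets above the floor (grey) and the 12 member probe sets (red), with the 1.5-fold rule as dashed lines. 2 probe sets lie beyond the y axis; the members run from Myl3 at -1.87 to Mylk2 at 0.30, with Myl1 and Mylpf at the lower dashed line at the bright end (above 0 if scaled to spike-ins, at 0.11 and 0.16).

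Myl4, the essential chain of embryonic muscle and atrium, did not pass the rule. On its bright probe set, 1422580_at, it read 11.48 (log2) for RP58+/+ and 11.13 for RP58-/-, a difference of -0.35 (1.28-fold). A dim probe set, 1457126_at, was at 5.49 and 5.65 (0.16), close to the floor, and the mean of both was -0.10. The embryonic heavy chain gene Myh3 was at 10.07 and 9.52, a difference of -0.55, and the gap of 0.20 between Myl4 and Myh3 was within the disagreement of probe sets. The gap between the essential chains Myl3 and Myl4 was -1.52, beyond that disagreement, but -0.72 and within it on 1427769_x_at.

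The member chains of smooth muscle and non-muscle myosin stayed within the 1.5-fold rule. Myl9, on chromosome 2, the regulatory chain of smooth muscle, was at 10.52 and 10.08, a difference of -0.43 (1.35-fold) that did not pass the rule. It was beyond the pooled SD of probe sets, 0.278, and 10.96% of genes above the floor had a lower difference. Myl6, on chromosome 10, was at 6.93 and 6.89 on its only probe set with 1 symbol, a difference of -0.03. Myl6b, its neighbour on that chromosome with 0 protein-coding genes between them, was at 5.70 and 5.68, a difference of -0.02 just above the floor. A pair of further probe sets names Myl6 together with the gene models Gm8894 and Gm5526, so that they are not members. They read 11.99 and 12.41 (0.41), and 12.68 and 12.91 (0.23), and both were higher in RP58-/-. Whether this signal comes from Myl6 or from the other loci cannot be read from these probe sets.

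Smooth muscle markers give the setting for Myl9 and Myl6. Of 9 such genes, 2 were lower, 1 was higher and 6 were within the rule, beside 6.51% lower and 3.84% higher of all genes. Their median was 0.02, with a summed linear signal of 4747 and 4157 on the RP58+/+ and RP58-/- arrays. Smooth muscle actin Acta2 was at 10.94 and 10.93, and the smooth muscle heavy chain Myh11 was at 5.89 and 6.57 (0.67), higher by the rule. The gap of Myl9 to Myh11 was -1.11, beyond the disagreement of probe sets, but it rests on 1 probe set of Myh11 read near the floor. The other probe set of Myh11, under the floor, was at 5.29 and 5.58, a smaller difference of 0.285. The part of signal range in this gap was not tested. The lower genes were Synpo2 (-1.82) and Smtn (-0.76), which encode actin-associated proteins. Synpo2, at 9.79 and 7.97, is among the brighter genes of the list, so the lower summed signal depends strongly on it. Its other probe sets above the floor were at -0.71 and -0.12. The non-muscle heavy chains Myh9 and Myh10 were at 0.53 each on their brightest probe sets, whereas 3 further probe sets of Myh9 above the floor were between -0.02 and 0.01.

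Of 10 heart markers, 4 were under the floor, and the others differed by less than the 1.5-fold rule. The atrial heavy chain Myh6 was at 3.84 and 3.82 on the RP58+/+ and RP58-/- arrays. Nppa, Tnni3 and Tbx20 were also under the floor, and the 6 of 10 heart genes above it had a median of 0.17, with 0 past the rule in either direction. Their summed linear signal was 781 and 839. The atrial regulatory chain Myl7 was at 8.22 and 8.33 (0.11). Heart also uses Myl2, Myl3 and Myl4, and the part of heart RNA in their signals was not tested.

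Mylk2, the light chain kinase of skeletal muscle, was the only one of the 9 genes with a higher signal in RP58-/-, although spike-in scaling would put all but Myl2 and Myl3 above 0. It read 6.07 (log2) for RP58+/+ and 6.37 for RP58-/-, a difference of 0.30 (1.23-fold), which did not pass the rule and is close to the pooled SD of probe sets. The gap between Mylk2 and its substrate Mylpf was 0.89, above the 0.732 limit. Mylk2 was read near the floor and Mylpf near the top of the scale, and the part of signal range in this gap was not tested. Another kinase of the family, Mylk4, differed far more. It was at 8.81 and 6.76, a difference of -2.05 (4.13-fold lower), and its gap to Mylk2 was -2.34. The heart kinase gene Mylk3 was at 7.57 and 7.37 (-0.20), and the smooth muscle kinase gene Mylk at 9.42 and 9.44 (0.02). Another probe set of Mylk was at 0.48.

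Among further light chains and the enzymes that set their phosphorylation, Mylk4 and Ppp1cb were lower by the rule and the others above the floor were within it. Of 7 other light chain and kinase genes, 6 were above the floor, 1 (Mylk4) was lower and 0 higher, and their median was -0.09. The non-muscle regulatory chains Myl12a and Myl12b were at 12.59 and 12.40 (-0.18) and at 11.31 and 11.32 (0.01). Of 17 genes of light chain phosphorylation, 12 had a probe set of their own and 10 were above the floor. In this list 1 gene was lower and none higher (0), at a median of -0.05. Over all genes above the floor 6.51% were lower, so 1 lower gene in 6 or in 10 says little about either list. The lower gene was Ppp1cb, the catalytic subunit of myosin phosphatase, at 12.17 and 11.55 (-0.62), and its other probe sets were at -0.34, -0.29 and -0.54. The targeting subunit gene Ppp1r12a was at -0.04.

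The heavy chain genes Myh1 and Myh8 were lower by more than the fast light chains, whereas another fast heavy chain gene, Myh2, read from a dim probe set, was not. Myh1, a fast adult heavy chain, was at 11.18 and 9.20 on the RP58+/+ and RP58-/- arrays, a difference of -1.99, with -2.12 on another probe set and 0.15 on a dim one (5.64 and 5.79). The neonatal chain Myh8 was at 12.20 and 10.26, a difference of -1.94. The gaps to Mylpf were 1.40 and 1.35, and those to Myl1 were 1.35 and 1.30, in each case beyond the disagreement of probe sets. Both light chains were read in the brightest range and Myh1 and Myh8 were not, and the part of signal range in the gaps was not tested. Of 9 sarcomeric heavy chain genes, 5 were above the floor, 2 were lower and 0 higher, beside 6.51% and 3.84% of all genes. Their median of -0.58 became -1.26 with the floor at the 60th percentile. Myh2 was at 6.25 and 6.07, a difference of -0.18 that is nearer to 0 than those of Myl1 and Mylpf. A further fast heavy chain gene, Myh4, was at 6.27 and 4.09 (-2.18), with a mean under the floor. Its other probe set, also under the floor, was at 0.28. Probe sets of the heavy chain genes may share sequence among paralogs, which the annotation used here does not show.

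Among broader lists, fast fibre genes had 9 of 10 members lower, 0 higher and a median of -1.85, with Pvalb, a calcium buffer (-3.69), Mybpc2, fast myosin-binding protein C (-3.36), and Casq1, a calcium store protein (-2.34), in front. Slow fibre genes had 5 of 11 lower, 0 higher and a median of -0.58, with Mybpc1 (-1.91), myoglobin Mb (-1.77) and Casq2 (-1.62) in front. Over all genes above the floor 6.51% were lower and 3.84% higher. Myl1 and Mylpf, at -0.64 and -0.59, lay above 9 of these 10 fast genes in their difference. Myl3, at -1.87 on its brightest probe set, lay below 10 of the 11 slow genes. Mybpc1 and Mb were lower than its probe set 1428266_at (-1.66). Casq2 and Ankrd2 (-1.24) were also lower than 1427769_x_at (-1.08). Among genes of myosin folding, Unc45b, a chaperone of muscle myosin, was at 8.69 and 6.94 (-1.74), and the other 3 of 4 were within the rule. One of them, the methyltransferase gene Smyd1, differed by -0.54 on the brightest of its probe sets, while a second gave -1.95.

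**Figure D3:**
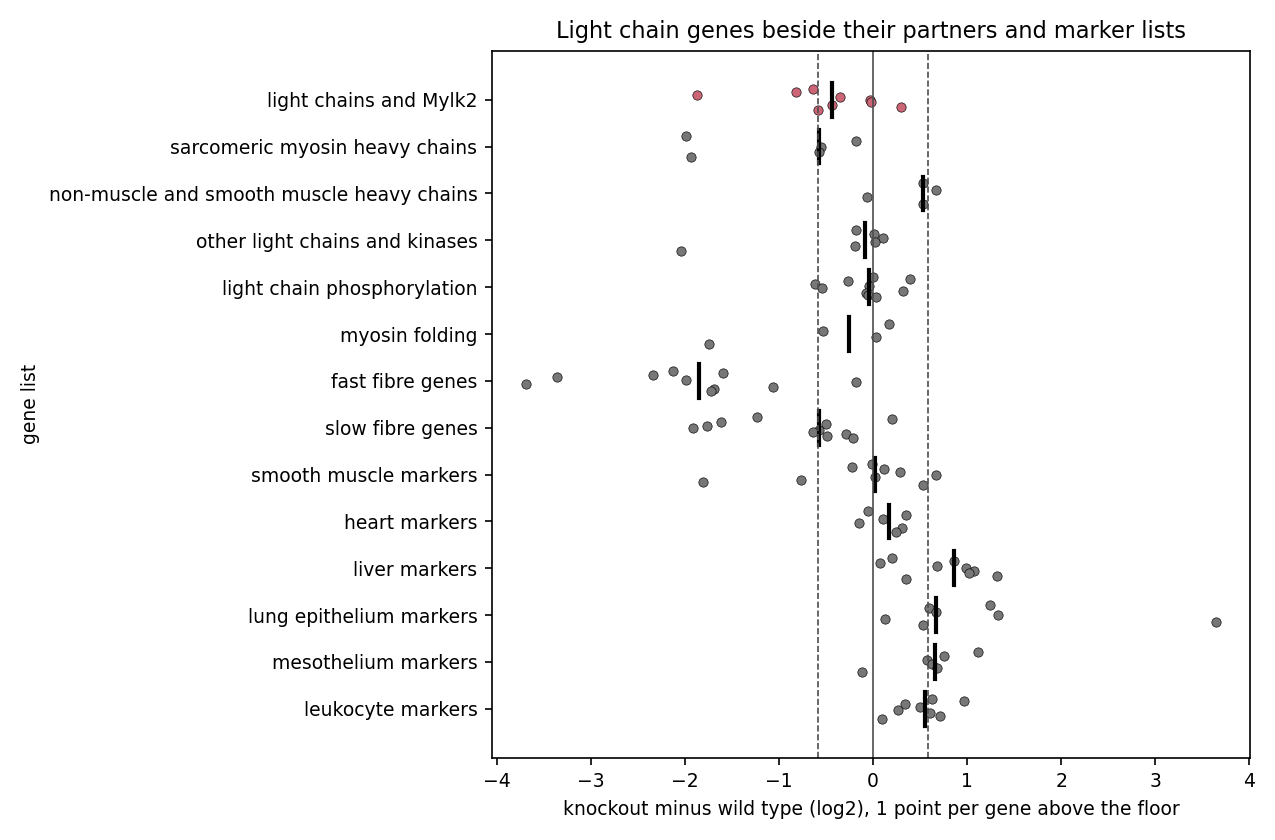
Difference of log2 signals, knockout minus wild type (x axis), of each gene above the floor (points) in the 9 light chain and kinase genes (red) and in lists of partners and tissue markers (grey), with list medians as black bars and the 1.5-fold rule as dashed lines. The members' median is -0.43 (0.315 if scaled to spike-ins), between fast fibre genes at -1.85 and liver markers at 0.86.

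The promoters of the genes that were lower are given here with that of Myl9 for contrast. The sequences are the 250 bases before each RefSeq start of build GRCm38.p6, 5′ to 3′ on the strand of the gene, and capitals mark E-boxes (CANNTG, the letters bound by MyoD-type factors) and the CArG box of serum response factor. RefSeq promoters were found for 8 of the 9 genes, all but Mylk2, with 10 starts in all. The windows are chr7:127211358-127211607 (plus strand) for Mylpf, chr1:66945057-66945306 (minus strand) for Myl1 and chr9:110763428-110763677 (plus strand) for Myl3. Those of Myl2 are chr5:122092474-122092723 for start 1 and chr5:122092939-122093188 for start 2 (plus strand), and that of Myl9 is chr2:156775214-156775463 (plus strand).
Mylpf: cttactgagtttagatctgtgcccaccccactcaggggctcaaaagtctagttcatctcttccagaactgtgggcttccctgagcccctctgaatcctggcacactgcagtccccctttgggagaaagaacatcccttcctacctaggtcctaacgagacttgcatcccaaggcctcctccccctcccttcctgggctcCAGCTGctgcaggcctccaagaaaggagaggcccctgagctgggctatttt
Myl1: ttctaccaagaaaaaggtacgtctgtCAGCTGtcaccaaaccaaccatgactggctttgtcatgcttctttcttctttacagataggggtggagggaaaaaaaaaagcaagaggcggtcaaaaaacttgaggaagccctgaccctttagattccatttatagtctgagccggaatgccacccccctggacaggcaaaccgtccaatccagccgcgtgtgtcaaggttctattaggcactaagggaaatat
Myl3: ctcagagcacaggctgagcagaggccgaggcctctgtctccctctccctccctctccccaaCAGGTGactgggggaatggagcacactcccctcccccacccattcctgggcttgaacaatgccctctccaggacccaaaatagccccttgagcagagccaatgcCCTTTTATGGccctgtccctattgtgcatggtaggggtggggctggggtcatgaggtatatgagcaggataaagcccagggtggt
Myl2 start 1: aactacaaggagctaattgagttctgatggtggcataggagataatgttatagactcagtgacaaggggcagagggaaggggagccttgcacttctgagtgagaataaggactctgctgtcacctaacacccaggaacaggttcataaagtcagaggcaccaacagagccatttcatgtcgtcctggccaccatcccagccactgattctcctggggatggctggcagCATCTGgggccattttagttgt
Myl2 start 2: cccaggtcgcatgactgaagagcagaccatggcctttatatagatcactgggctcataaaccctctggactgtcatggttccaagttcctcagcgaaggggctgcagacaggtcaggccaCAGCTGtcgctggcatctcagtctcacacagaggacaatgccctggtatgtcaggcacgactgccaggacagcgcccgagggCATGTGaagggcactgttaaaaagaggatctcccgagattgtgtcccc
Myl9: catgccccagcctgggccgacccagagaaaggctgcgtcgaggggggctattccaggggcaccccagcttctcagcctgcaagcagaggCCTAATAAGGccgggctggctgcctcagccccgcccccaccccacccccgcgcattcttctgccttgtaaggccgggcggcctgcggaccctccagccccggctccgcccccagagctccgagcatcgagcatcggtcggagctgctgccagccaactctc

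Each window of the 4 lower genes held at least 1 E-box, whose first base, counted from the start, lay at -51 in Mylpf, at -224 in Myl1, at -189 in Myl3, at -22 in Myl2 start 1, and at -130 and -48 in Myl2 start 2. E-boxes are common: 66.2% of all 32851 RefSeq promoter windows of this length hold one, and 7 of the 10 member windows did, including Myl6 start 2 and Myl6b. The windows of Myl9, Myl4 and Myl6 start 1 held none. A CArG box was found in 3 windows, those of Myl3 at -85, Myl9 at -161 and Myl6 start 1 at -50, and in 1.47% of all windows. CATTCC, the MCAT element of Tead factors, was found in the windows of Myl3 (at -177 and -149) and Myl1 (at -80), and in 12.6% of all. TATAAA was found in those of Myl1 (at -95) and Myl2 start 2 (at -216), both on the opposite strand, and in 12.4% of all. ACATCTG, the core of the site known for RP58, which contains an E-box, and the MEF2 site were in 0 of the 10 windows, beside 3.71% and 2.92% of all. All motifs were searched on both strands. The matches describe letters in these windows and do not show binding.

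**Figure D4:**
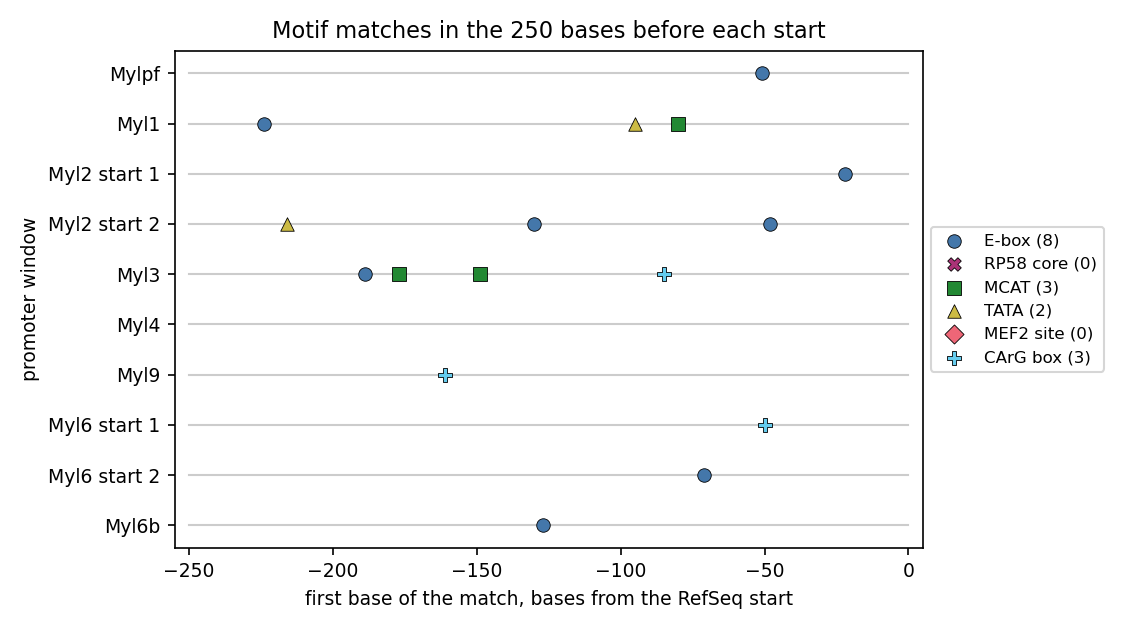
Position of each motif match (x axis, first base in bases from the RefSeq start) in the 250 bases before the 10 starts of 8 member genes (y axis), with the number of matches of each motif in the legend. 8 E-boxes, 3 CArG boxes, 3 MCAT elements and 2 TATA matches are shown, and the windows of Mylpf, Myl1, Myl2 and Myl3 each hold an E-box.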

How the data were processed

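RNA of 2 diaphragm samples, 1 per RP58 genotype, was measured on Affymetrix mouse arrays, and the deposited probe sets matched a larger design of the family than the series' text names. The extraction label speaks of a culture, but the tissue label was used. Per the series' design text, the authors computed log2 signals with RMA (background correction, quantile normalisation, probe set summary), and the submitters' processing notes name Affymetrix Expression Console 1.1. The deposited log2 values of 45101 probe sets were used as they stand, so any difference in total mRNA had been removed; the sorted columns differed by at most 0.119. RMA gives no detection call. The platform annotation gave 1 symbol to 34945 probe sets, several to 932 and none to 9160, and 64 were controls.

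Differences were taken per probe set (Python 3.11.15, pandas 2.3.3). The floor was the 40th percentile of mean signal over probe sets that are not controls. With 1 array per group a size rule of 1.5-fold replaced a test. All member probe sets are named, and of other lists up to 2 higher and 3 lower genes and a fixed few; other examples, and pairs whose gaps are given, were chosen after values were seen. The members and lists were chosen with earlier results of these data known. Likeness of genes across samples was not measured, with 2 arrays. The alternatives were the mean or median over probe sets, other floors, median centring, loess (statsmodels 0.14.6, fraction 0.3), scaling to spike-ins, leaving out _s_at, _x_at and _a_at probe sets, and a 2-fold rule.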

Additional observations from a re-analysis of the deposited data

How the results depend on the processing

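Of 155 values recomputed under the alternatives, 135 moved by less than the SD of probe sets (counts: by less than 1.5 times). Many of these could hardly move, so the count is no measure of stability. Only 2 of the 9 genes had more than 1 probe set and all 12 probe sets were above the floor. For the other genes the mean, the median and removal of the floor therefore return the same value. Median centring shifts each difference by only -0.012. In all 9 differences or medians changed sign, 7 of them under spike-in scaling. Medians of the partner and marker lists were recomputed only with the mean over probe sets and other floors, so spike-in scaling is not counted for them. Of the list medians below 0, its shift of 0.748 would leave only those of fast fibre genes (-1.85) and skeletal muscle markers (-0.89) below 0. Scaling to the poly-A spike-ins raised every difference by 0.748. It left 1 of 9 genes lower and 3 higher, and 2 of 12 probe sets lower and 4 higher, with a median over the genes of 0.315. Of the genes lower by the rule, Myl1 (0.109) and Mylpf (0.157) changed sign, as did Myl4 (0.394), Myl6 (0.714), Myl6b (0.725) and Myl9 (0.315), which had not passed it. Myl2 (-0.076) kept its sign but came within the rule. With a 2-fold rule 1 gene and 3 probe sets were lower. Without _s_at, _x_at and _a_at probe sets, which leaves Myl1 unread, 3 probe sets were lower, and the median over the genes was -0.39. The mean over its probe sets put Myl3 at -1.54. With the floor at the 60th percentile, Myl6b and Mylk2 dropped out, and the medians were -1.26 for sarcomeric heavy chains and 0.952 for lung genes, with fewer genes in each, and those of smooth muscle (-0.12) and heart markers (-0.05) fell below 0. Loess moved Mylpf to -0.583, inside the 1.5-fold rule. No paired analysis was possible because each group has 1 array, and no array could be left out. RMA gives no detection call, so how far Myl6b and the dim probe set of Myl4, both next to the floor, stand above background is unknown.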
